A study of Homo sapiens with 6 samples.

Results

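Alternative splicing of MYO6 and of 8 further genes for unconventional myosins (MYO1C, MYO1E, MYO5A, MYO9A, MYO9B, MYO10, MYO18A and MYO19) was examined in breast cancer cells with and without expression of the RNA-binding protein RBM47. Members were all cassette (CA) exon events listed under these gene symbols, which gave 32 of the 24725 events measured, in 8 of the 9 genes. MYO1C had no event in the table. The gene family was chosen with the splicing values in view, led by a MYO6 exon, and the values of that exon are given as a description with no test. RNA sequencing had been carried out on poly-A selected RNA from MDA-MB-231-BrM2a cells, a derivative of the MDA-MB-231 breast cancer line with brain-metastatic behaviour. The 3 control samples were non-clonal cells that carried the empty retroviral vector pRetroX-Tight-Pur. The 3 RBM47 samples came from 1 clone of the same cells, wt#10, in which a Flag-tagged wild-type RBM47 is switched on by doxycycline. All 6 samples had received 10 ng/ml doxycycline for 3 days, so the drug is common to both groups. Because the RBM47 group is 1 clone and the control group is not clonal, an effect of RBM47 and an effect of the clone cannot be told apart. The labels do not say that the 3 samples of a group were grown separately, and p-values then measure only the spread between these samples.

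Most unconventional myosins are motors that walk along actin filaments without forming the thick filaments of muscle-type myosin II. They typically have a head that binds actin and ATP, a neck that binds light chains, and a tail that binds cargo, membrane or signalling partners. Alternative exons in the tail can change which partners bind. Myosin VI, the product of MYO6, moves towards the minus end of actin, opposite to other myosins, and is made with or without a large and a small insert in the tail. The large-insert form is known from clathrin-coated structures of polarised epithelial cells, and the form without the insert from uncoated endocytic vesicles. Myosin Va carries melanosomes and secretory vesicles, myosins IXa and IXb carry a GTPase-activating domain in the tail, and myosin XVIIIa has a PDZ domain and acts at the Golgi and with myosin II filaments.

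The inclusion rate (IR) estimates the fraction of transcripts that hold the exon, among those with a junction of the event. The authors counted the reads that cross either of the 2 junctions made by an included exon, and divided them by their sum with the skipping reads, which were weighted by 2. The group totals do not always give the deposited rates in this way, even where the rates of a row averaged to its printed averages. For a MYO19 event the control totals gave 0.0243, while no control sample had a rate above 0.00629. An IR computed from group totals is therefore not always the same measure as the deposited rates. Exons were identified by matching the outer span of an event to the exons of its gene in the GENCODE annotation of GRCh37, which gave 1 exon for 21 of the 32 events. The sequences of the exons on which the results turn are shown because they are short, all of them shorter than the median matched CA exon of 107 bases, and because 4 of them build the inserts of the MYO6 tail. Each is read from GRCh37 on the strand of the gene, from 5′ to 3′, with the exon in capitals, 20 intron bases before it and 10 after it in lower case. The 8 windows are chr6:76604511-76604567, chr6:76604928-76604987, chr6:76608070-76608138 and chr6:76621369-76621425 (all plus strand), chr17:27412612-27412686 (minus), chr19:17321122-17321199 (plus), chr15:52635304-52635414 (minus) and chr15:72311370-72311456 (minus), in the order of the lines.
MYO6 27-base exon at the large insert: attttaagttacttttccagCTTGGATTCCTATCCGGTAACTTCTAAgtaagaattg
MYO6 30-base flanking exon: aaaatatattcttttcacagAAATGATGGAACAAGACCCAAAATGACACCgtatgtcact
MYO6 39-base exon: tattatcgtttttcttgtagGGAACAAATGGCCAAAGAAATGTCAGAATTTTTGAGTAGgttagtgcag
MYO6 27-base exon at the small insert: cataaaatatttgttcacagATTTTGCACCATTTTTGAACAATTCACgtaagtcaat
MYO18A 45-base exon: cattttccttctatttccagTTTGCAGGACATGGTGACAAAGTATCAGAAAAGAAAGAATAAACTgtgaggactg
MYO9B 48-base exon: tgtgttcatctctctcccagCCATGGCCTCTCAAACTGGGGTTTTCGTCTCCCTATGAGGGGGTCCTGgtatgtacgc
MYO5A 81-base exon: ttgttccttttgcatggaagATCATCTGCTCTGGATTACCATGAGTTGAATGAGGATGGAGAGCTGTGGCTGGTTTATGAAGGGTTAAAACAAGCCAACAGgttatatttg
MYO9A 57-base exon: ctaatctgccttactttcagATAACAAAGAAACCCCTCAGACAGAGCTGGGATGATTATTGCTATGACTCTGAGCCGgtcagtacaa

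All 8 exons lie between an ag and a gt, the usual ends of introns, are annotated as coding, and have a length divisible by 3, so that inclusion or skipping keeps the reading frame. Among all 8507 matched CA exons, 46.6% had a length divisible by 3, and 15 of the 21 matched myosin exons did. Exons of at most 27 bases made up 2.22% of the matched exons of the whole table. Along their genes, 7 of the 8 exons lie in the 3′ part, which encodes the tail, at 83.8% to 97.0% of the gene length from the 5′ end. The MYO9A exon lies at 33.6%.

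Read totals were given per group, so the depth of a single sample is unknown. Over all events they came to 26498401 reads in control and 24116982 in RBM47 samples, a ratio of 0.910. RBM47 replicate 2 stood apart, with 14.8% of its rates at exactly 0 or 1 over events of intermediate inclusion, against 6.07% to 7.64% in the other 5 samples. In 6 of the 32 myosin events, as in 1392 of all rows, the rates and the printed averages of a row were out of step, and the rates were taken from the row that gave the printed averages. These 6 were 3 MYO6 events and 1 event each in MYO18A, MYO9B and MYO5A, which include 4 of the 5 events past the study criteria below. For these 4 only the printed RBM47 average found a row, and the control average printed beside it was set aside. The matched control mean was 0.691 for MYO18A, where the printed average was 0.354 and the rate from the control read totals 0.693. For MYO9B these values were 0.990, 0.918 and 0.991, for MYO5A 0.518, 0.637 and 0.468, and for MYO6 0.0278, 0.0224 and 0.191. RBM47 itself had no CA event, so the transgene was not analysed here. All 6 markers fixed for this mesenchymal-like line (VIM, CD44, FN1, SPARC, AXL and MSN) had events, with 0.359 to 0.964 times as many reads in RBM47 as in control samples. Of 9 epithelial or luminal markers, 8 had no event, and KRT8 had 1, with 3199 control and 6358 RBM47 reads.

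By the criteria of the study (Fisher's exact test with p no larger than 0.05, mean IR differing by 0.2 or more, and 10 or more reads), 2 myosin exons had higher and 3 had lower inclusion in RBM47 cells. These 5 of 32 events are 15.6%, beside 1.4% of all 24706 events with rates (0.607% higher and 0.793% lower). The members were chosen for this contrast, so the share is given as a description. Because Fisher's test uses group totals, the spread between replicates was tested with limma on arcsine-transformed rates, over the 5998 events with a mean IR of 0.1 to 0.9, 12 of them in myosin genes. A call, which required an adjusted p below 0.05 and a change of 0.2 or more, was reached by 1.53% of the events tested (0.75% higher and 0.784% lower). Apart from the MYO6 exon that led the choice of genes, which is described with no test, it was reached in myosin genes by the lower-inclusion exons of MYO18A and MYO9B. In 6 of the 32 events, or 18.8%, every rate of one group lay above every rate of the other, beside 9.92% of all events. The median difference over the 32 events was -0.000437, beside 0 over all events.

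**Figure D1:**
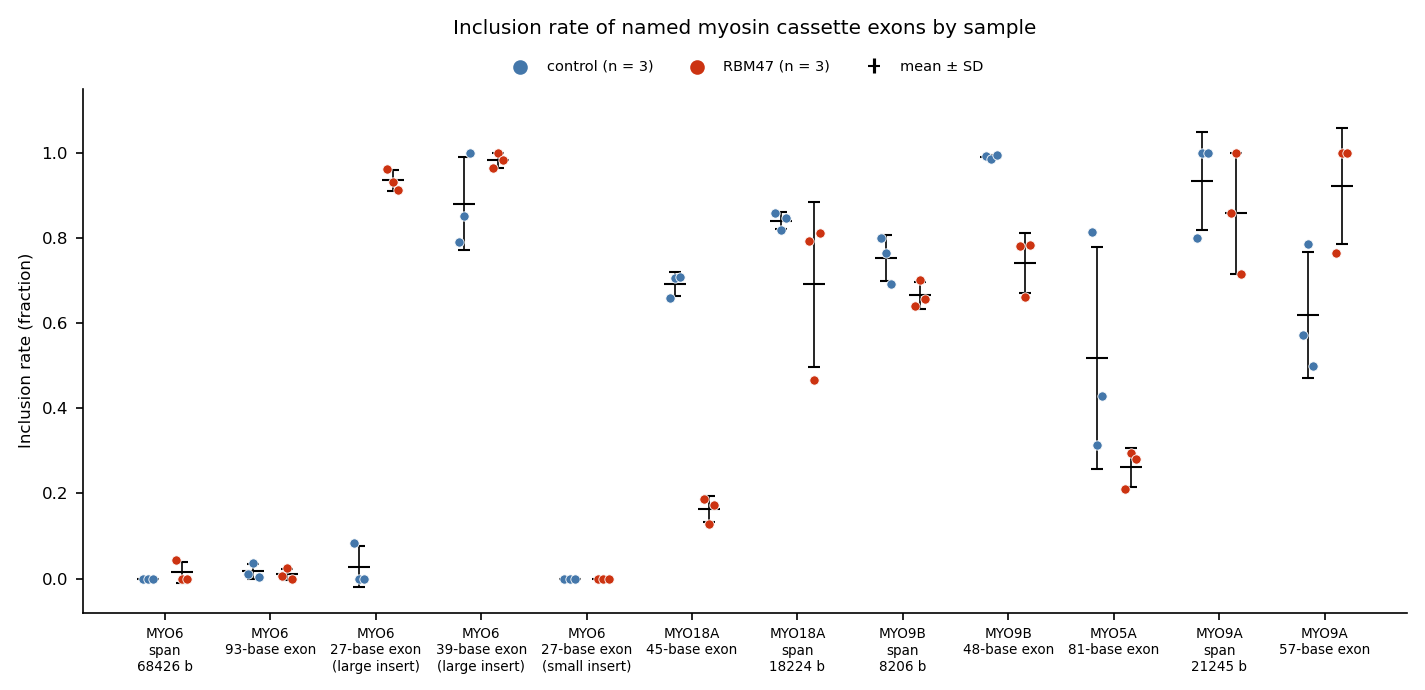
Inclusion rate (fraction, vertical axis) of 12 myosin CA events in each control (blue) and RBM47 (red) sample, with the mean ± SD of 3 samples in black. The MYO6 27-base exon at the large insert lies between 0 and 0.0833 in control and between 0.912 and 0.961 in RBM47 samples, and the MYO18A and MYO9B exons are lower in all 3 RBM47 samples than in any control sample.

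By the matched rates, the MYO6 27-base exon at the large-insert position went from nearly absent to nearly complete among transcripts with a junction of its event. The control read totals gave a higher control inclusion, as given below. Transcripts that skip the whole insert have none of these junctions and do not enter this IR. The IR was 0.0833, 0 and 0 in control replicates 1, 2 and 3, and 0.961, 0.931 and 0.912 in RBM47 replicates 1, 2 and 3. The groups were far apart, and each sample lay close to its own group mean of 0.0278 ± 0.0481 in control and 0.935 ± 0.0249 in RBM47 cells (SD, n = 3). The difference of 0.907 was the highest of all 24706 events with rates. It ranged from 0.893 to 0.935 when any 1 sample was left out. The group totals had the same direction, with 18 including beside 38 skipping reads for control samples and 321 beside 11 for RBM47 samples. An IR computed from these totals was 0.191 in control and 0.936 in RBM47 cells, a smaller difference of 0.744. The control value of 0.191 lies above all 3 matched control rates, and the average printed for control was 0.0224. Why the totals and the rates differ was not tested. The exon is at chr6:76604531-76604557 of GRCh37 on the plus strand, and the event spans 76658966 to 76661696 of chromosome 6 in the table, whose build is not stated. It joins a 161-base exon to the 30-base exon printed above.

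The 39-base exon of MYO6 follows the 30-base exon and completes the insert. Its IR was 0.789, 0.852 and 1 in control and 0.964, 1 and 0.982 in RBM47 replicates, and the groups overlapped. Among transcripts with a junction of this event, the exon was mostly included in both groups. Transcripts that skip the whole insert do not enter this IR either, so it does not give the share of all MYO6 transcripts. The means were 0.880 ± 0.108 in control and 0.982 ± 0.0180 in RBM47 cells (SD, n = 3), a difference of 0.101. Fisher's exact test compared 87 including and 4 skipping reads (control) with 432 and 4 (RBM47), and gave p = 0.0334, which did not pass after Benjamini-Hochberg adjustment over all events (0.272). The mean IR lay above the range tested with limma. The exon is at chr6:76608090-76608128.

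Both events have the 30-base exon as a flank, so that 1 of the 2 including junctions and the skipping junction of each event end in it. In the table's own coordinates the outer ends of the 2 events overlap by exactly these 30 bases. The reads of the 2 events summed to 147 in control and 768 in RBM47 samples, 5.22 times as many (exact 95% interval 4.37 to 6.28, counting error only). An included exon gives 2 junctions and a skipped exon 1, so higher inclusion by itself raises this unweighted sum. A read that crosses several of these short exons may also be counted at more than 1 junction. The interval allows for neither. The other 3 MYO6 events, outside the insert, went from 1082 to 747 reads, a ratio of 0.690 (0.628 to 0.759). The group totals at the insert were thus higher in RBM47 samples and those of the other MYO6 junctions lower, with no replicate check. The skipping of the whole insert, from the 161-base exon at chr6:76602247-76602407 to the 104-base exon at chr6:76617322-76617425, is not a CA event of 1 exon and was not analysed here. In RNA from many cells, a larger share of cells that use the insert and a higher use in each cell cannot be told apart. Of 8 annotated MYO6 transcripts that hold both outer exons, 2 hold all 3 of the 27-, 30- and 39-base exons, 96 bases in all, 1 holds the 27- and 30-base exons, 1 the 30- and 39-base exons, and 4 none.

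The small insert of MYO6 did not appear in the rates of any sample. The 27-base exon at chr6:76621389-76621415 had an IR of 0 in all 6 samples. This match rests on printed averages of 0, which several rows with the same rates gave. The group totals held 19 including beside 508 skipping reads for control and 0 beside 445 for RBM47 samples, and Fisher's exact test on these totals gave p = 1.47e-05 (0.000693 adjusted over all events). These 19 reads are not reflected in the rates, and an IR from the control totals was 0.0184. Why the totals and the rates differ was not tested. The event did not meet the study criteria because the difference in mean IR was 0. The small-insert exon and the large-insert exon printed above have the same length of 27 bases and different sequences.

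**Figure D2:**
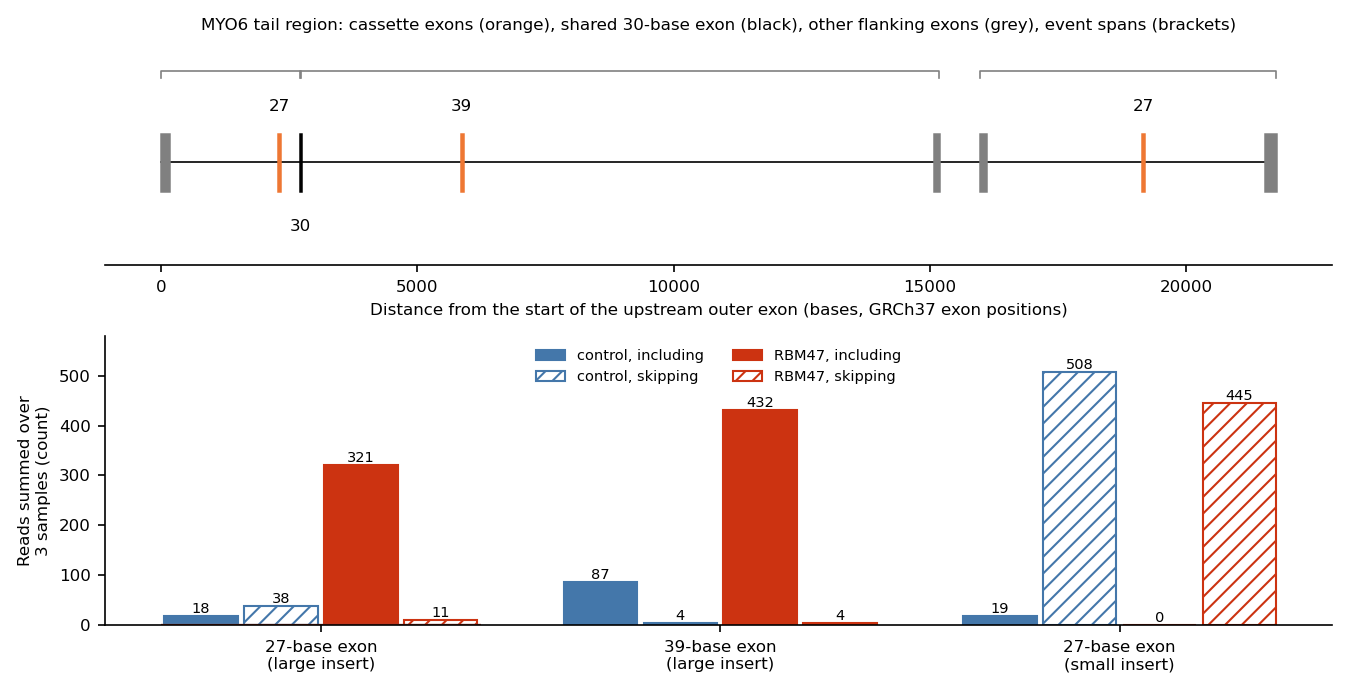
Upper panel: the MYO6 tail region, with cassette exons in orange, the shared 30-base exon in black, other flanking exons in grey and the span of each event as a bracket (distance in bases from the upstream outer exon; numbers are exon lengths). Lower panel: including (filled) and skipping (hatched) reads of the 3 events, summed over 3 control (blue) or 3 RBM47 (red) samples; including reads of the large-insert exons were 18 and 87 in control and 321 and 432 in RBM47 samples, and skipping reads of the small-insert exon were 508 and 445.

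The remaining MYO6 events lay upstream of the tail and were almost always skipped. A 93-base exon at chr6:76577148-76577240, annotated as not or only partly coding, had an IR of 0.012, 0.0369 and 0.00310 in control and 0.00529, 0.0252 and 0 in RBM47 replicates. The groups overlapped, with means of 0.0173 ± 0.0175 and 0.0102 ± 0.0133 (SD, n = 3). The event from 76515675 to 76584100 in the table, with no matched exon, had an IR of 0 in 5 samples and 0.0435 in RBM47 replicate 1. The differences were -0.00713 and 0.0145.

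MYO18A showed the largest fall in inclusion among the myosin exons. Its 45-base exon, at chr17:27412622-27412666 on the minus strand, had an IR of 0.658, 0.706 and 0.708 in control and 0.186, 0.129 and 0.174 in RBM47 replicates. All 3 control samples included the exon in most transcripts, and all 3 RBM47 samples skipped it in most. The mean fell from 0.691 ± 0.0285 to 0.163 ± 0.0299 (SD, n = 3), a difference of -0.528 that was far larger than the spread between replicates (limma adjusted p = 0.000252, and 4.45e-05 to 0.0166 over 11 alternative fits). The read totals went from 470 including and 104 skipping reads to 189 and 480, and gave the same difference (-0.529). The averages printed in the row gave a smaller difference of -0.191, under the 0.2 of the study criteria, and the rates as deposited in that row one of 0.521 in the opposite direction. In the GENCODE annotation 1 transcript includes this exon between these neighbours and 6 skip it.

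A second MYO18A event holds the exon just upstream of the 45-base exon. This 140-base exon, at chr17:27413456-27413595, was included at an IR of 1 in 5 samples and 0.994 in RBM47 replicate 3. Its downstream junction runs straight to the exon after the 45-base exon, and is thus the junction that marks skipping of the 45-base exon. Its including reads went from 426 to 1088, and the skipping reads of the 45-base exon from 104 to 480. Including and skipping reads of the 140-base exon together went from 426 to 1089, a ratio of 2.56 (exact 95% interval 2.28 to 2.87). The reads of the 2 exons overlap and are not independent measurements. Inclusion in the MYO18A event from 24473309 to 24491532 in the table was 0.857, 0.818 and 0.846 in control and 0.793, 0.467 and 0.811 in RBM47 replicates, with means of 0.840 ± 0.0201 and 0.690 ± 0.194 (SD, n = 3). The groups did not overlap, yet the difference of -0.150 did not pass the test (limma adjusted p = 0.706, and 0.571 to 0.901 over 11 alternative fits). It was -0.0383 without RBM47 replicate 2.

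MYO9B, a motor with a signalling domain in its tail, had lower inclusion of a 48-base exon near the 3′ end of the gene, at chr19:17321142-17321189. The IR was 0.992, 0.985 and 0.993 in control and 0.781, 0.661 and 0.784 in RBM47 replicates. Control cells included the exon almost always, and each RBM47 sample skipped it in a minority of transcripts. The mean fell from 0.990 ± 0.00458 to 0.742 ± 0.0703 (SD, n = 3), a difference of -0.248 (limma adjusted p = 0.000865). The adjusted p stayed under 0.05 in 10 of 11 alternative fits (0.000442 to 0.0377) and was 0.0548 when events of all mean rates were tested together. The totals went from 1765 including and 8 skipping reads to 1230 and 190. The averages printed in the same row gave a smaller difference of -0.177, under the 0.2 of the study criteria.

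The other 2 MYO9B events share their outer ends, from 17147471 to 17155676 in the table, and so share their skipping reads. One had an IR of 0.8, 0.765 and 0.692 in control and 0.639, 0.7 and 0.656 in RBM47 replicates, with overlapping groups and a difference of -0.0873 (limma adjusted p = 0.662). The other was included more, with means of 0.949 ± 0.0107 and 0.923 ± 0.00616 (SD, n = 3) and groups that did not overlap, and lay above the range of mean IR tested with limma.

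In MYO5A the 81-base exon, at chr15:52635314-52635394 on the minus strand, is the tail exon usually called D, which is known to be needed for binding of Rab10. Its IR was 0.8125, 0.3125 and 0.429 in control and 0.209, 0.294 and 0.281 in RBM47 replicates. Every RBM47 sample lay below every control sample, and the control samples were far from each other. The mean went from 0.518 ± 0.262 to 0.262 ± 0.0457 (SD, n = 3), and the difference of -0.256 did not exceed the spread between replicates (limma adjusted p = 0.4997, and 0.440 to 0.786 over 11 alternative fits). Fisher's exact test on the totals, 72 including and 41 skipping reads against 37 and 52, gave p = 0.00187 (0.0384 adjusted over all events). Without control replicate 1 the difference was -0.109, and the study criteria were no longer met. It was -0.375 from the averages printed in the row, -0.491 from the rates as deposited in that row and -0.205 from the read totals. Exon F, the 75-base tail exon at chr15:52630007-52630081 that is known for binding of melanophilin in pigment cells, was nearly absent in both groups, with means of 0.00971 ± 0.0168 and 0.0222 ± 0.0385 (SD, n = 3).

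In MYO9A a 57-base exon, at chr15:72311380-72311436 on the minus strand, had an IR of 0.571, 0.786 and 0.5 in control and 0.765, 1 and 1 in RBM47 replicates. The groups overlapped by 1 sample each. The mean went from 0.619 ± 0.149 to 0.922 ± 0.136 (SD, n = 3), and the difference of 0.303 did not pass the replicate-level test (limma adjusted p = 0.350, and 0.201 to 0.685 over 11 alternative fits). The event rested on 46 including and 13 skipping control reads and on 34 and 2 RBM47 reads, with a Fisher's exact test p of 0.0422 (0.314 adjusted over all events). Another MYO9A event, from 70018246 to 70039490 in the table, had 0.8, 1 and 1 in control and 0.857, 1 and 0.714 in RBM47 replicates, with overlapping groups (limma adjusted p = 0.814).

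**Figure D3:**
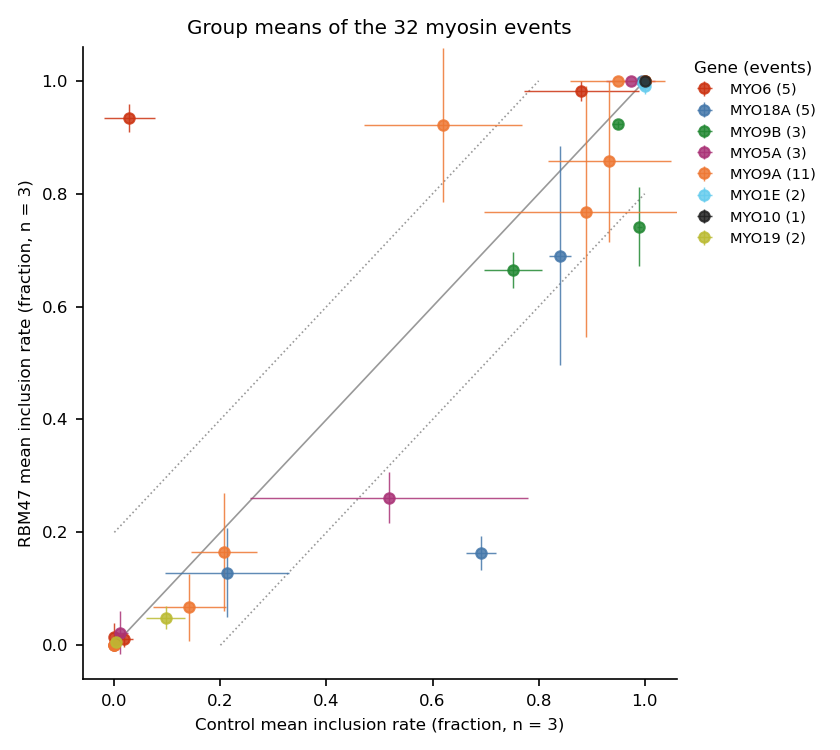
Mean inclusion rate (fraction, n = 3) of each of the 32 myosin events in control (horizontal axis) and RBM47 (vertical axis) samples, coloured by gene, with the SD in each direction. The solid line marks equal rates and the dotted lines a difference of 0.2; 5 events lie beyond the dotted lines, 2 above (MYO6, MYO9A) and 3 below (MYO18A, MYO9B, MYO5A).

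The other 20 myosin events met neither the study criteria nor the limma call. In 11 of them the overall mean IR was above 0.9 and in 5 below 0.1, with differences of at most 0.0513 and 0.0486 in size. The remaining 4 lay between, and over all 20 events the difference ranged from -0.120 to 0.0513. Both events of MYO1E, a membrane-binding class I myosin, were included at means of 0.992 to 1. The 1 event of MYO10, the motor of filopodia, had an IR of 1 in all 6 samples. In MYO19, which binds mitochondria, both exons were mostly skipped, and a 122-base exon annotated as not or only partly coding had means of 0.0970 ± 0.0366 in control and 0.0484 ± 0.0204 in RBM47 cells (SD, n = 3), with overlapping groups.

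Junction reads per gene give a rough view of how much of each transcript was sampled, and they mix the level of the gene with the use of the junctions counted. Across 7776 genes with at least 30 control reads, the ratio of RBM47 to control reads had a median of 0.853, and its 5th and 95th percentiles were 0.379 and 1.46. MYO18A lay above that range, with 1662 control and 2866 RBM47 reads, a ratio of 1.72 (exact 95% interval 1.62 to 1.83). The MYO18A ratio was 4.28 for skipping reads alone and 1.61 for its event with the most reads. Its sum counts the junction that skips the 45-base exon again in the event of the 140-base exon. All 5 MYO18A events had ratios above 1, from 1.17 at the 45-base exon to 2.56. MYO6 had a ratio of 1.23 (1.14 to 1.33), which was 0.697 for skipping reads alone and 0.844 for its event with the most reads. MYO19 had 1.02 (0.930 to 1.12), MYO9B 0.798 (0.755 to 0.843) and MYO1E 0.754 (0.674 to 0.844). The lowest were MYO10 at 0.569 (0.467 to 0.691), MYO5A at 0.545 (0.452 to 0.654) and MYO9A at 0.540 (0.478 to 0.610). These intervals cover counting error only, since reads were not given per sample and the spread between replicates could not be tested.

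**Figure D4:**
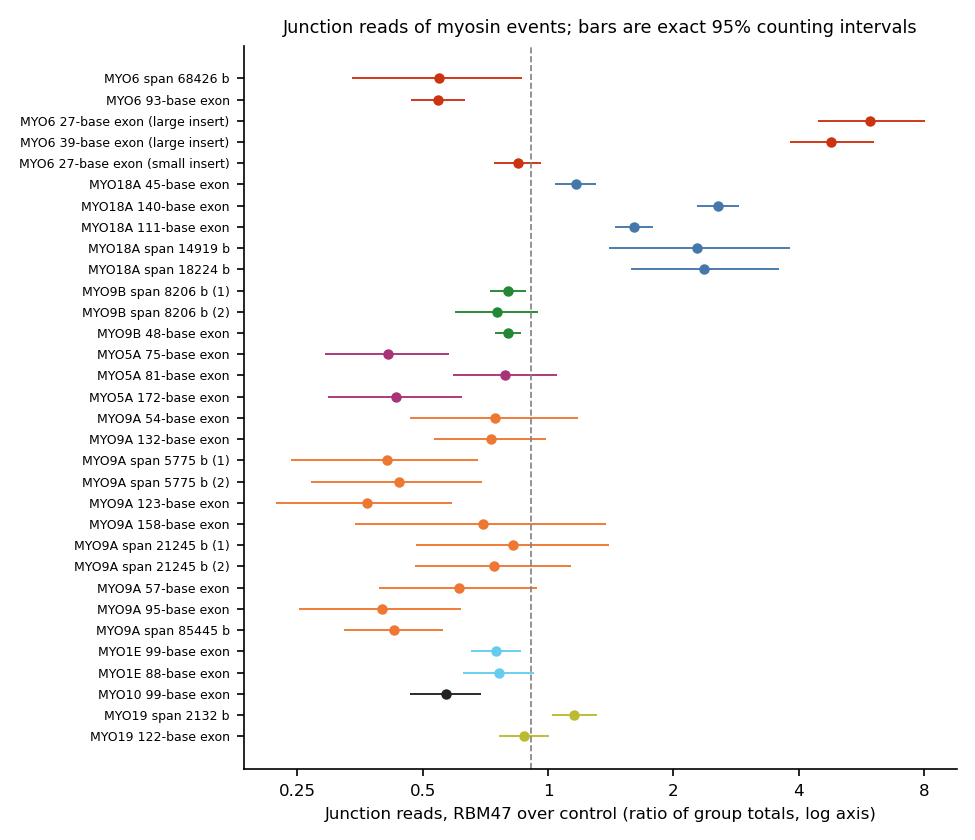
Ratio of RBM47 to control junction reads (group totals of 3 samples, log axis) for each of the 32 myosin events, coloured by gene, with exact 95% counting intervals; the dashed line is the ratio over all events, 0.910. The large-insert exons of MYO6, at 5.93 and 4.79, lie to the right of all other events, and the next are those of MYO18A.

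Genes that work with these myosins were read from lists of related genes. Of 9 genes for myosin VI cargo adaptors, 8 had events, 57 in all, with 0 higher and 1 lower by the study criteria. This is 1.75% of the list, near the 1.4% of all events, and says nothing particular about the adaptors. The lower event was a 654-base exon of DAB2, the endocytic adaptor that binds the myosin VI tail, at chr5:39382720-39383373. Its IR was 1 in all 3 control replicates and 0.752, 0.542 and 0.407 in RBM47 replicates. The groups did not overlap, and the difference of -0.433 passed the replicate-level test (limma adjusted p = 0.00199). The control totals were 922 including and 0 skipping reads, and the RBM47 totals 538 and 59. An IR from these totals was 1 in control and 0.820 in RBM47 cells, above all 3 matched RBM47 rates, and the difference of -0.180 was under the 0.2 of the study criteria.

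Of 15 genes for myosin II chains and their regulators, 9 had events, 31 in all, with 2 higher and 1 lower by the study criteria, or 9.68% of the list beside 1.4% of all events. The essential light chain gene MYL6 had an IR of 0.353, 0.335 and 0.327 in control and 0.1, 0.0889 and 0.107 in RBM47 replicates for the event from 54840293 to 54841624 of chromosome 12 in the table. The mean fell from 0.339 ± 0.0133 to 0.0988 ± 0.00925 (SD, n = 3), on 17337 and 16615 reads (limma adjusted p = 0.000252). The 2 higher events were in PPP1R12A, the targeting subunit of myosin phosphatase, and share their outer ends and skipping reads. Their means went from 0.485 ± 0.0665 to 0.696 ± 0.151 and from 0.303 ± 0.0418 to 0.513 ± 0.153 (SD, n = 3), with limma adjusted p of 0.363 and 0.403, and neither met the study criteria without control replicate 2 (differences of 0.173 and 0.188) or without RBM47 replicate 2 (0.125 and 0.133), nor with rates from the read totals (0.172 and 0.177). The rates of the MYL6 and DAB2 events and of the first PPP1R12A event were matched by the RBM47 average alone.

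The 18 events of 6 of 9 genes for partners of myosin V tails and the 9 events of 4 genes for light chains held 0 events past the study criteria, beside 1.4% of all events, a share at which lists of this size hold few or none. The 2 largest differences in the first list were 0.0993 in SPIRE1 and -0.0951 in SPIRE2, which nucleate actin on myosin V vesicles, and those in the second 0.0833 and -0.0786 in CALML4. The median difference was -0.00218 and 0.000712 in these lists, 0 for the cargo adaptors, and -0.000272 for the myosin II list, beside 0 over all events. Of 22 events of these 4 lists tested with limma, 0 passed higher and 2 lower (9.09% in all), those of MYL6 and DAB2, beside 1.53% of all events tested. The DAB2 call rests on matched RBM47 rates that all lie below the rate from its read totals.

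The exons whose pattern over the 6 samples was most like that of the MYO6 exon were sought among events with 30 or more reads per group, by the mean absolute difference of the 6 rates. The closest was a 24-base exon of CSPP1, at a mean absolute difference of 0.104, with an IR of 0 in all 3 control replicates and 0.857, 0.727 and 0.680 in RBM47 replicates. It was followed by an event of PDGFA at 0.149, events of SEC31A at 0.178 and 0.185, and a 51-base exon of TBC1D15 at 0.189. All 5 had control means of 0 to 0.0827 and RBM47 means of 0.579 to 0.755, below the 0.935 of the MYO6 exon. The rates of all 5 were matched by the RBM47 average alone, as were those of the MYO6 exon. With Euclidean distance in place of the mean absolute difference, 3 of these 5 events were again among the closest.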

How the data were processed

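RNA-seq of 3 control and 3 RBM47 samples was used as 1 table of CA exon events. The authors deposited the IR of each sample and each group average as a fraction, and read counts summed over the 3 samples of a group. The columns with the authors' own comparisons (difference, odds ratio and p-value) were not used. The submitters' processing notes name TopHat; the build of the table's coordinates is not given in the sources used here. Columns of other samples numbered 0.

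Of 24725 events, 1392 had rates that did not average to the printed averages. Rates were re-matched by both averages (tolerance 3e-09) or by the RBM47 average alone (251 events, including 12 named here: 4 of the myosin exons, 3 of the related genes and the 5 most like the MYO6 exon), which left 24706 with rates. Fisher's exact test (two-sided, scipy 1.17.1) used the group totals. limma 3.58.1 (R 4.3.3) used rates after an arcsine square root transformation, and a variance trend on log2 reads. Adjustment was Benjamini-Hochberg over all events tested. The script was tested on simulated data. Read ratios have exact (Clopper-Pearson) 95% intervals. Exons were matched by gene and outer span to 1 GENCODE exon of GRCh37, and not where events share outer ends. The distance between table and GRCh37 coordinates was constant in each of 5 myosin genes with several matches.

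Members, gene lists and the form of the limma test were chosen with earlier results of these data known. Given in every sample were the MYO6 events, events past either call, and events with a mean IR of 0.1 to 0.9 and 30 or more reads per group. From the other lists, events past either call were named, or otherwise the 2 with the largest difference among those with at least 30 reads in each group. A further gene list is not reported here.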

Additional observations from a re-analysis of the deposited data

How the results depend on the processing

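The direction of the MYO6 and MYO18A results depends on the re-matching of rates. With the rates left in the row as deposited, the difference was -0.256 for the MYO6 27-base exon and 0.521 for the MYO18A 45-base exon, opposite to their read totals and printed averages. With only the rows aligned as deposited, 1 myosin exon was higher and 0 lower by the study criteria, and 0 were higher and 0 lower by limma. The higher limma count is the MYO6 exon alone, which led the choice of genes and is no support. With the averages printed in the row, 1 exon was lower, since the difference was -0.191 for MYO18A and -0.177 for MYO9B.

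Other criteria changed counts near the thresholds. The 2 higher exons became 1 (MYO6) with adjusted Fisher p-values or with including reads halved, and the 3 lower exons became 1 (MYO18A) with a difference of at least 0.3. limma with all mean rates gave 1 lower exon in place of 2. Leaving out 1 sample at a time gave 2 to 2 higher and 2 to 3 lower exons by the study criteria, the lowest without control replicate 1 (MYO5A), and 1 to 1 higher and 2 to 2 lower by limma. Over all partner lists, with the one not reported here, the 3 higher events became 1 with adjusted Fisher p-values and 0 to 3 when 1 sample was left out, 0 without control replicate 2 and 1 without RBM47 replicate 2 while the lower events numbered 2 to 3. With rates from the group totals, an alternative added after seeing the data, 1 event was higher and 1 lower (MYL6).

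No pairing by replicate number was seen in the rates, which cannot show whether same-numbered samples were handled together. The deviations of same-numbered samples were correlated across events with r of -0.0222, -0.00560 and 0.0142 across events, and with the replicate number as a block limma gave 1 higher and 2 lower myosin exons, as without it, with an adjusted p of 0.00351 for MYO18A and MYO9B. Read totals per group were as low as 56 for the MYO6 27-base exon (control) and 36 for the MYO9A 57-base exon (RBM47), and depth per sample is unknown.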
